A study of Mus musculus with 3 samples.

Results

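The genes described here are 10 genes of Nodal and bone morphogenetic protein (BMP) signalling, namely Nodal, Lefty1, Lefty2, Tdgf1, Bmp4, Id1, Id2, Id3, Smad7 and Inhbb. They were taken by gene name from RNA-seq tables of 3 mouse embryonic stem (ES) cell samples. In these, 25346 genes were listed alone in all 3 samples and never in a joined name, which leaves out Lefty1 and Lefty2. Of these 10, 7 were listed alone with a value above 0, Lefty1 and Lefty2 were written as 1 joined name in 2 of the samples, and Inhbb was listed at 0 in all 3. The level of a gene is given in FPKM, sequenced fragments normalised to transcript length and to all mapped fragments of the sample, and is the larger of the sum over its transcription start rows and the sum over its transcript end rows.

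All 3 samples were C57BL/6 ES cells grown with serum and leukemia inhibitory factor on mitomycin-C inactivated mouse embryonic fibroblast feeders. The wild-type (WT) cells carried intact Pcgf1, which encodes a core subunit of the variant Polycomb repressive complex PRC1.1. The Pcgf1-/- cells had been made with Cas9 by removing exons 2 and 3 of Pcgf1, and the Pcgf1-/-+Pcgf1 cells were Pcgf1-/- cells infected with a lentivirus that carried FLAG-tagged Pcgf1 and selected with puromycin. The mutant line was raised from picked colonies, so a difference of that line from WT and an effect of the deletion cannot be told apart. There was 1 sample of each kind, so no ratio below has a replicate error or a test, and a gene is called higher or lower where the ratio of FPKM + 0.1 passed 2-fold. The 3 comparisons share samples with each other: the Pcgf1-/- sample enters both of the first 2.

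Nodal is a secreted ligand of the TGF-beta superfamily that signals through activin receptors and SMAD2 and SMAD3, and it needs the co-receptor encoded by Tdgf1 (Cripto). The Lefty genes are targets of this pathway and encode its secreted antagonists, so the pathway restrains itself. BMP4 signals through its own receptors and SMAD1 and SMAD5, and the Id genes, which encode helix-loop-helix proteins that hold back differentiation factors, are its best known direct targets. SMAD7 is an inhibitory SMAD induced by either branch. In mouse ES cells in serum, BMP signals together with leukemia inhibitory factor favour self-renewal, while Nodal signals are tied to the readiness to form mesendoderm.

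The sequences just before the RefSeq starts of the ligand genes Nodal and Bmp4 are shown, and their part in the levels of these genes was not tested. Each is the 250 bases before the RefSeq start in GRCm38.p6, the same coordinates as mm10, written 5′ to 3′ on the strand of the gene, with each CG dinucleotide in capitals. The Nodal sequence is chr10:61417722-61417971 on the plus strand and the Bmp4 sequence is chr14:46390670-46390919 on the minus strand.
Nodal: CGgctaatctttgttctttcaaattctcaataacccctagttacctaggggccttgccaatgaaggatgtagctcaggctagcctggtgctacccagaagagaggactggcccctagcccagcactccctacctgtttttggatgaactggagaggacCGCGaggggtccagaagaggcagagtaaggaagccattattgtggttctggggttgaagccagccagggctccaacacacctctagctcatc
Bmp4: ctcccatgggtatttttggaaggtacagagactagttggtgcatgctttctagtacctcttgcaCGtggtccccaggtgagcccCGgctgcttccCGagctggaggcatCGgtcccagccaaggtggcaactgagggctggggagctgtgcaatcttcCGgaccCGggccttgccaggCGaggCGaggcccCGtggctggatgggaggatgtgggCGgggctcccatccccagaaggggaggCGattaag
The Nodal window held 3 CG dinucleotides, and 29.0% of all 32851 RefSeq promoter windows of this length held fewer. The Bmp4 window held 11, and 64.4% of the windows held fewer, against a median of 6. The first exon of Bmp4 listed in the deposited tables ends inside the RefSeq gene, at 46390304 to 46390535, so the window lies before the RefSeq start and not directly before the listed exon.

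Neither window held the BMP response element core GGCGCC, the SMAD element CAGAC or the FoxH1 core AATCCACA on either strand; 9.59%, 42.2% and 0.718% of all windows held them. RefSeq promoter entries were matched for 6 of the 10 genes, the others being Tdgf1, Id2, Id3 and Inhbb. The Id2 window held GGCGCC 231 bases before the RefSeq start, the Tdgf1 window held CAGAC 1 time, and the Id3 window held CAGAC 167 and 68 bases before the RefSeq start. The Id3 window, chr4:136143572-136143821, lies inside the first exon listed in the deposited tables, 136143497 to 136144178, so both of its matches are in that exon and not before the start of the gene. The Id2 window lies directly before the first exon listed for Id2, though within the longer annotated gene. Id2 and Id3 held 18 CG dinucleotides each, Tdgf1 7 and Inhbb 21. The match in Id2 is shown with the part of its window that lies outside annotated exons, chr12:25096254-25096342 on the minus strand, with the matched letters in capitals.
Id2: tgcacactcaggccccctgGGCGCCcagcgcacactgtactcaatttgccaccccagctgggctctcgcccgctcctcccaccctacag
A match or its lack describes the letters in this window alone and was not tied to the binding of any factor.

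Of the ligand genes, Bmp4 was higher in Pcgf1-/- cells than in the other samples, and Nodal was nearly level across them. Bmp4 (ENSMUSG00000021835, chromosome 14, 46383520 to 46390669, minus strand, 4 exons) was at 2.64 FPKM in WT, 19.97 FPKM in Pcgf1-/- and 5.69 FPKM in Pcgf1-/-+Pcgf1 cells. The mutant level was 7.33-fold that of WT, a log2 ratio of 2.87, and the level in the cells with added Pcgf1 lay between the others, at a log2 ratio of -1.79 to the mutant and 1.08 to WT. Bmp4 was thus a low transcript in WT that reached the range of Nodal in the mutant. Nodal (ENSMUSG00000037171, chromosome 10, 61417972 to 61425338, plus strand) was at 23.6, 24.8 and 22.7 FPKM in WT, Pcgf1-/- and Pcgf1-/-+Pcgf1 cells. Its log2 ratios were 0.07 for Pcgf1-/- over WT, -0.13 for Pcgf1-/-+Pcgf1 over Pcgf1-/- and -0.06 for Pcgf1-/-+Pcgf1 over WT. Inhbb (ENSMUSG00000037035, chromosome 1, 119415465 to 119422248, minus strand), which encodes the activin B subunit, was listed at 0 in each sample. A listed 0 need not mean absent RNA, since Gdf3, a ligand gene of ES cells, was also listed at 0 in all 3.

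The total of Nodal was steady, but the first exon to which it was given was not. In WT and Pcgf1-/- cells all of its FPKM stood at 1 start site. In Pcgf1-/-+Pcgf1 cells that site was listed at 0 and the whole 22.7 FPKM stood at another first exon 1379 bases upstream, which was not listed in the other samples. The Nodal sequence printed above lies between these starts.

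**Figure D1:**
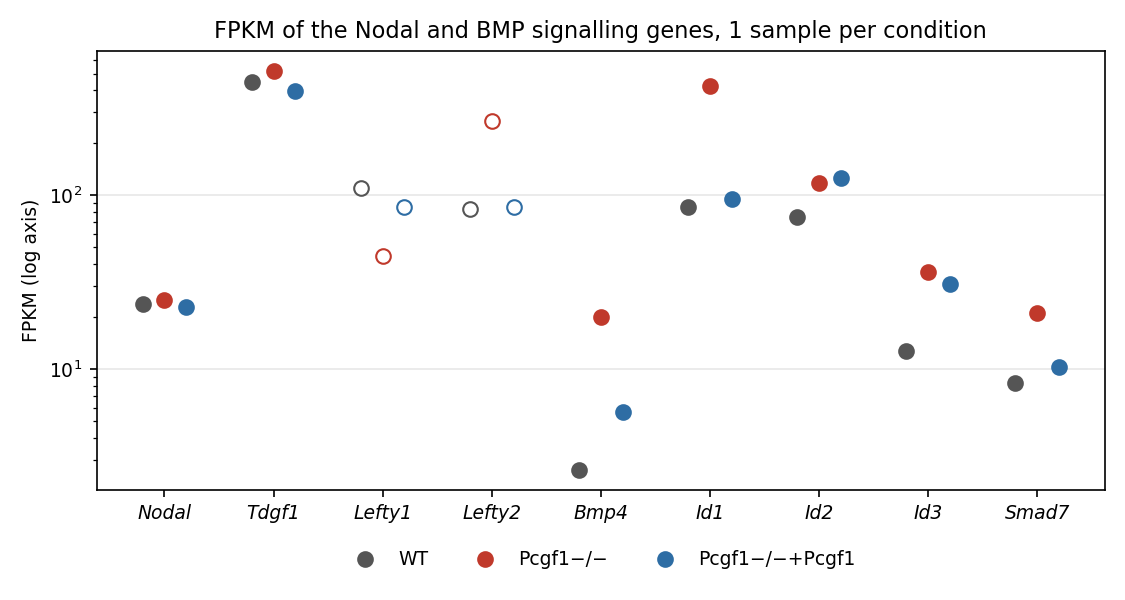
Level of each Nodal and BMP gene in FPKM (logarithmic axis) in the WT, Pcgf1-/- and Pcgf1-/-+Pcgf1 samples, with 1 point a sample and open points for Lefty1 and Lefty2, taken from their first-exon rows. Inhbb, listed at 0, is not drawn. The Pcgf1-/- point stands above both others for Bmp4, Id1, Id3 and Smad7, while the 3 points of Nodal nearly coincide.

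The co-receptor gene Tdgf1 had the highest FPKM of the 10 genes in each sample and varied less than Bmp4 or Id1. It (ENSMUSG00000032494, chromosome 9, 110939603 to 110946158, minus strand) was at 449 FPKM in WT, 519 FPKM in Pcgf1-/- and 394 FPKM in Pcgf1-/-+Pcgf1 cells, with log2 ratios of 0.21, -0.40 and -0.19 in the order used for Nodal. These values carry a limit: 12.5% of the 50-base windows of the main annotated Tdgf1 transcript also occur in the pseudogene Tdgf1-ps1, and 5 of 1783 windows of 150 bases do. Of 9 further receptor and transducer genes of this branch with at least 1 FPKM in WT or Pcgf1-/- cells, Acvr2b was lower in the mutant and 8 lay within 2-fold. Below 1 FPKM, the receptor gene Tgfbr2 was at 0.39 FPKM in WT and 0.98 FPKM in the mutant, and the co-receptor gene Cfc1 was at 0.49 FPKM in WT and listed at 0 in the mutant. The type I receptor Acvr1b was at 8.54, 7.59 and 6.73 FPKM and the type II receptor Acvr2a at 2.68, 2.01 and 2.96 FPKM in WT, Pcgf1-/- and Pcgf1-/-+Pcgf1 cells. Smad2 was at 13.9, 13.3 and 13.7 FPKM, Smad3 at 5.85, 5.14 and 4.64 FPKM, and Smad4, which both branches share, at 17.1, 18.2 and 13.5 FPKM. Foxh1, the DNA-binding partner of SMAD2 in Nodal responses, was at 44.7, 49.4 and 33.9 FPKM. Acvr2b, another type II receptor, was at 4.202 FPKM in WT and 4.245 FPKM in Pcgf1-/-+Pcgf1 cells but listed at 0 in Pcgf1-/- cells. That pattern was not peculiar to Acvr2b: 15 genes were listed at 0 in Pcgf1-/- cells with over 4 FPKM in both other samples, against 8 such genes for each of the other samples.

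The Nodal antagonists Lefty1 and Lefty2 lie in the same orientation on chromosome 1, and 35919 bases separate them. Lefty2 (ENSMUSG00000066652) spans 180893108 to 180899103 and Lefty1 (ENSMUSG00000038793) spans 180935022 to 180938400, both on the plus strand. In the tables of WT and Pcgf1-/-+Pcgf1 cells their rows carried a joined name, so they are reported apart from the others, by the row of the first exon of each gene. By these rows, Lefty2 was at 83.4 FPKM in WT, 267 FPKM in Pcgf1-/- and 85.9 FPKM in Pcgf1-/-+Pcgf1 cells, with a log2 ratio of 1.68 for the mutant over WT. Lefty1 went the other way, from 109.6 FPKM in WT to 44.8 FPKM in Pcgf1-/- and 85.2 FPKM in Pcgf1-/-+Pcgf1 cells, with a log2 ratio of -1.29 for the mutant over WT. The Lefty2 to Lefty1 ratio was therefore 0.761 in WT and 1.01 in Pcgf1-/-+Pcgf1 cells but 5.96 in Pcgf1-/- cells.

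How the rows of this locus were built differed between the samples in the same way. Where the name was joined, 1 last exon was listed for the locus, with the Lefty1 value, and the last exon of Lefty2 was not listed. In Pcgf1-/- cells both last exons were listed and their sum equalled that of the first exons. The sum of both genes differed less between Pcgf1-/- and WT cells than either gene: it was 193 FPKM in WT, 312 FPKM in Pcgf1-/- and 171 FPKM in Pcgf1-/-+Pcgf1 cells, with log2 ratios of 0.69, -0.87 and -0.17. For Pcgf1-/-+Pcgf1 over WT cells, Lefty2 alone was at 0.04 and Lefty1 at -0.36. The genes also share sequence, since 17.9% of the 50-base windows of Lefty1, 281 of 1571, and 11.6% of those of Lefty2 occur in the other gene, although none of the 150-base windows does. The part of the joined rows and of the shared sequence in the split between Lefty1 and Lefty2 was not tested.

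Smad7, the inhibitory SMAD, was higher in the mutant at both of its used start sites. Smad7 (ENSMUSG00000025880, chromosome 18) was at 8.33 FPKM in WT, 20.9 FPKM in Pcgf1-/- and 10.3 FPKM in Pcgf1-/-+Pcgf1 cells, which gave log2 ratios of 1.32, -1.02 and 0.30. The upstream start was at 1.90, 7.82 and 3.23 FPKM and the other, 2447 bases on, at 6.43, 13.1 and 7.08 FPKM in the same order. For the mutant over WT, the log2 ratio was 1.98 at the upstream start and 1.02 at the other. The upstream start held 22.8%, 37.3% and 31.4% of the Smad7 total in the same order, so its share was largest in the mutant. A further start site was listed at 0 throughout. The last-exon row of Smad7 was also listed at 0 in all 3 samples, so these are values of first exons alone.

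**Figure D2:**
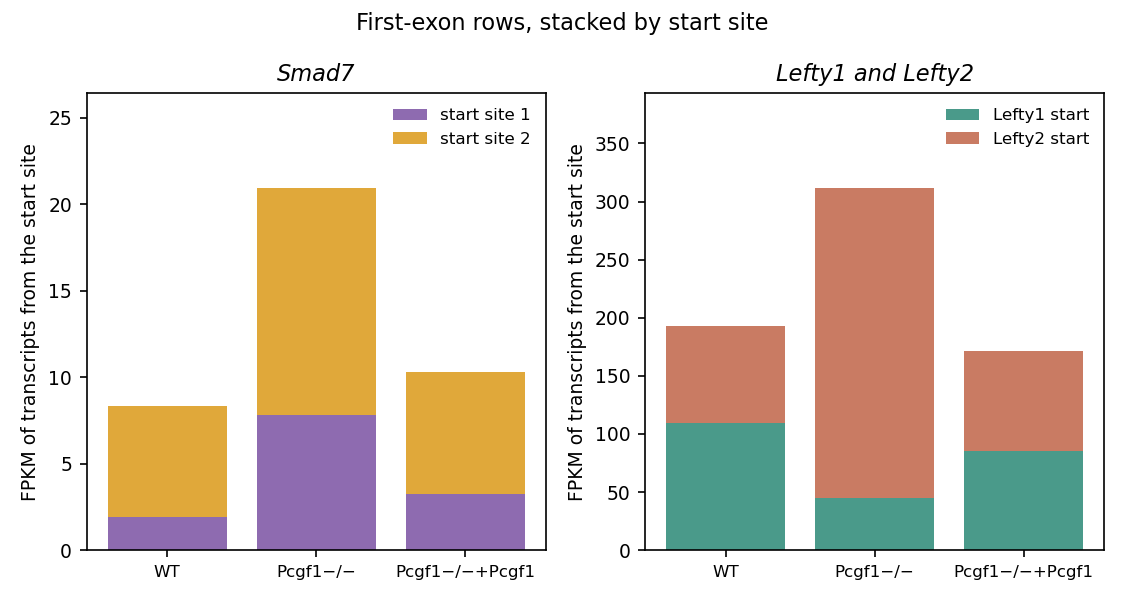
FPKM in the 3 samples, as bars stacked from 0, at the 2 used start sites of Smad7 (left, site 1 upstream) and at the first exons of Lefty1 and Lefty2 (right). Both Smad7 sites are highest in Pcgf1-/- cells, and Lefty2 exceeds Lefty1 by 5.96 times in Pcgf1-/- cells.

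The 3 Id genes, the targets of BMP signalling, stood in different order across the samples. Id1 (ENSMUSG00000042745, chromosome 2, 152736251 to 152737410, plus strand, 2 exons) was at 85.1 FPKM in WT, 423 FPKM in Pcgf1-/- and 95.0 FPKM in Pcgf1-/-+Pcgf1 cells. The mutant level was 4.96-fold that of WT, and the log2 ratio of Pcgf1-/-+Pcgf1 to Pcgf1-/- cells was -2.15, which left the former 0.16 above WT on the log2 scale. Id1 was thus high in the mutant alone. Id3 (ENSMUSG00000007872, chromosome 4, 136143497 to 136145755, plus strand) was at 12.7 FPKM in WT, 35.9 FPKM in Pcgf1-/- and 31.0 FPKM in Pcgf1-/-+Pcgf1 cells. It was 2.82-fold higher in the mutant than in WT, and it remained high where Pcgf1 had been added, at a log2 ratio of -0.21 to the mutant and 1.28 to WT. These are values of the first exon, since the last exon of Id3 was not the same row in all samples. In WT and Pcgf1-/- cells it was listed from 136145583 to 136145755, at 0. In Pcgf1-/-+Pcgf1 cells it was listed from 136145583 to 136145585, at 18.9 FPKM. Id2 (ENSMUSG00000020644, chromosome 12, 25093799 to 25097140, minus strand) was at 74.7, 118 and 125 FPKM in WT, Pcgf1-/- and Pcgf1-/-+Pcgf1 cells, and its log2 ratios of 0.66, 0.08 and 0.74 did not reach 2-fold. Id1 therefore stood near WT in the cells with added Pcgf1, and Id2 and Id3 stood near the mutant. Id4, named after its values were seen, was at 3.35, 6.704 and 2.45 FPKM, and its log2 ratio of 0.98 for the mutant over WT lay just short of the limit while that of -1.42 for the cells with added Pcgf1 over the mutant passed it.

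The 5 receptor and transducer genes of the BMP branch with at least 1 FPKM in WT or Pcgf1-/- cells were within 2-fold in the mutant. The type I receptor Bmpr1a was at 11.9, 15.8 and 9.49 FPKM in WT, Pcgf1-/- and Pcgf1-/-+Pcgf1 cells, and the type II receptor Bmpr2 at 2.03, 3.49 and 2.45 FPKM. The type I receptor Acvr1 was at 2.55, 2.75 and 1.81 FPKM and the transducer Smad1 at 4.24, 5.23 and 3.67 FPKM. Smad5 was listed in a name joined with another gene and is not given. On the log2 scale the ratio of mutant over WT was 0.11 for Acvr1, 0.76 for Bmpr2, 0.41 for Bmpr1a and 0.30 for Smad1. Below 1 FPKM, the receptor gene Bmpr1b was at -0.70 and Acvrl1 at 0.02.

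**Figure D3:**
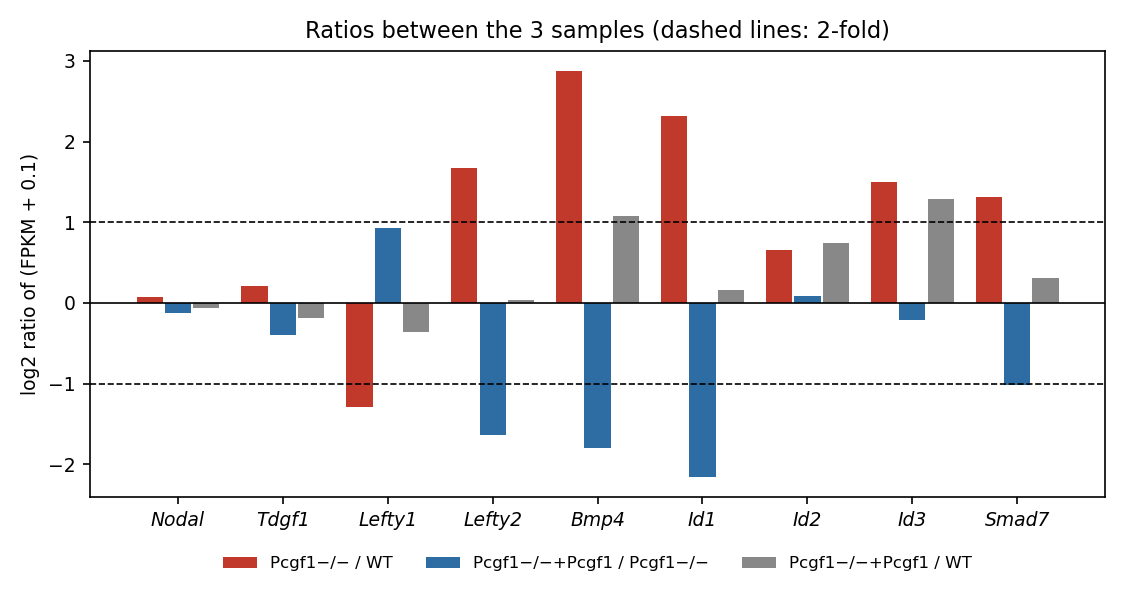
Log2 ratios of FPKM + 0.1 for each Nodal and BMP gene except Inhbb in the 3 comparisons, as bars from 0, with dashed lines at 2-fold and Lefty1 and Lefty2 from their first-exon rows. Bmp4, Id1, Id3 and Smad7 lie past 2-fold for Pcgf1-/- over WT, as does Lefty2, while Lefty1 lies past it downward. Bmp4, Id1, Smad7 and Lefty2 lie past it downward for Pcgf1-/-+Pcgf1 over Pcgf1-/-.

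Counted together, 4 of the 7 genes with a value of their own were higher in Pcgf1-/- than in WT cells, namely Bmp4, Id1, Id3 and Smad7, none was lower, and Nodal, Tdgf1 and Id2 lay within 2-fold. Over all 13424 genes with a value above 0 in WT or Pcgf1-/- cells, 4.07% were higher and 9.41% lower by the same limit, 13.5% in either direction. Since each of the 7 genes was well above the lowest levels, the closer background is that of the 9438 genes with at least 1 FPKM, of which 2.98% were higher and 6.11% lower, 9.09% in either direction. Ranked from the highest ratio among these 9438 genes, Bmp4 was at place 46, Id1 at 60, Id3 at 120 and Smad7 at 157, while Id2 was at 586, Tdgf1 at 1971 and Nodal at 2980. The median log2 ratio was 1.32 over the 7 genes and -0.12 over all 13424 genes. The genes above 2-fold were thus 57.1% of the 7, and the genes within 2-fold were the Nodal ligand, its co-receptor and 1 of the Id genes. The genes were chosen with earlier results of these data known, so their share is not that of an independently picked set.

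**Figure D4:**
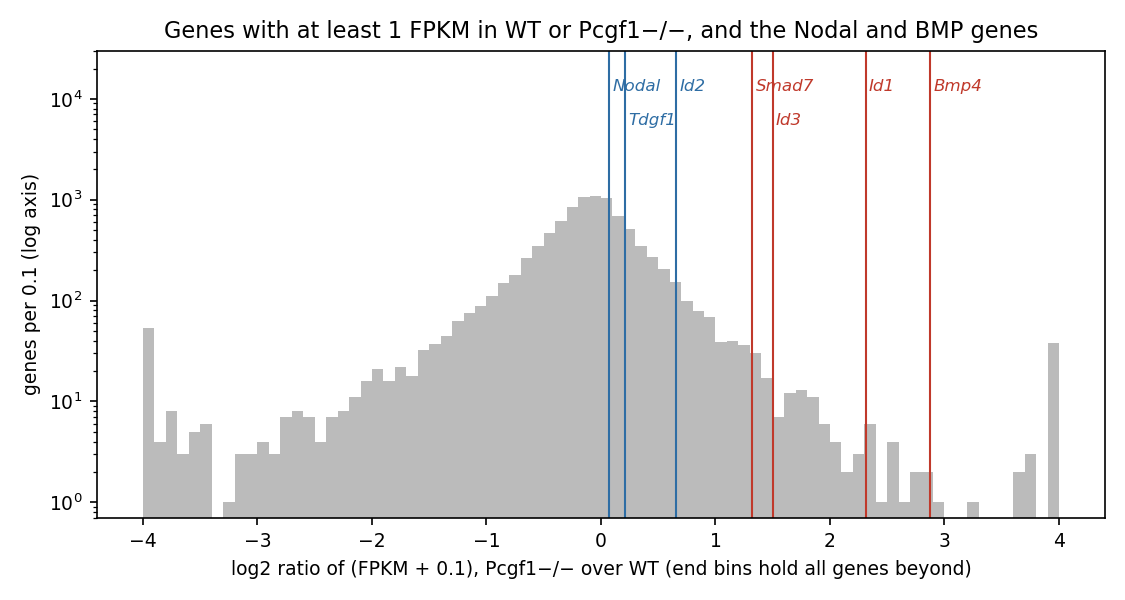
Number of genes per 0.1 of log2 ratio (logarithmic axis) for Pcgf1-/- over WT among genes with at least 1 FPKM, with the 7 Nodal and BMP genes marked as lines; the end bins also hold the genes beyond them. Bmp4, Id1, Id3 and Smad7 lie in the upper tail, and Nodal and Tdgf1 lie near the centre.

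Against Pcgf1-/- cells, Pcgf1-/-+Pcgf1 cells had 3 of the 7 genes lower, namely Bmp4, Id1 and Smad7, and none higher. In this comparison 4.11% of 13700 genes above 0 were lower and 11.8% higher, 15.9% in either direction. Of the 9565 genes with at least 1 FPKM, 3.6% were lower and 7.23% higher, 10.8% in either direction. From the lowest ratio among the 9565 genes, Id1 was at place 60, Bmp4 at 90 and Smad7 at 339. The median log2 ratio was -0.40 over the 7 genes and 0.05 over the 13700. Smad7 lay close to the limit, and it stood at -0.96 where the samples were scaled to equal medians of gene ratios. The mutant sample is shared with the comparison before, so a high value in that sample alone raises the first ratio and lowers this one.

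Against WT, Pcgf1-/-+Pcgf1 cells had Bmp4 and Id3 higher, 2 of the 7 genes, and none lower. Of 13824 genes above 0, 7.31% were higher and 4.32% lower, 11.6% in either direction. Of the 9620 genes with at least 1 FPKM, 3.84% were higher and 2.65% lower, 6.49% in either direction. From the highest ratio Id3 was at place 257, Bmp4 at 332 and Id2 at 545. The median log2 ratio was 0.30 over the 7 genes and -0.07 over the 13824. Scaling the samples to equal medians of gene ratios raised all ratios of this comparison by 0.12 on the log2 scale, and it left the same count of 2.

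Of 78 further genes of the Nodal, activin, TGF-beta and BMP pathways, 68 were listed alone and 34 of these reached 1 FPKM in WT or Pcgf1-/- cells. Of the 34, 3 were higher in Pcgf1-/- cells than in WT and 2 were lower. The higher genes were Smad6, which encodes the inhibitory SMAD of the BMP branch, Htra1, a secreted protease that binds TGF-beta family ligands, and Fgf8, a growth factor of the primitive streak. Smad6 was at 3.04, 6.89 and 3.78 FPKM in WT, Pcgf1-/- and Pcgf1-/-+Pcgf1 cells, Htra1 at 9.69, 23.2 and 17.0 FPKM and Fgf8 at 0.42, 1.28 and 0.83 FPKM. Their log2 ratios for the mutant over WT were 1.16, 1.25 and 1.40. The inhibitory SMADs Smad6 and Smad7 thus both passed 2-fold in the mutant.

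The lower genes were Acvr2b, described above, and Fstl1, which encodes a secreted follistatin-like protein also made by fibroblasts. Fstl1 was at 49.9, 19.7 and 36.2 FPKM, a log2 ratio of -1.34 for the mutant over WT. By role, 0 of 9 Nodal and activin receptors and transducers were higher and 1 lower, 0 of 5 BMP receptors and transducers passed the limit in either direction, and of 8 BMP antagonists 2 were higher and 1 lower, beside 2.98% higher and 6.11% lower among all genes at 1 FPKM or more. Over the 54 further genes with any value, 7 were higher and 4 lower, beside 4.07% higher and 9.41% lower of all 13424 genes above 0. Higher genes thus outnumbered lower ones among the 54, the reverse of all genes. The median log2 ratio of the 54 was 0.07. The median of the further genes thus lay nearer to that of all genes than to the 1.32 of the 7 genes. For Pcgf1-/-+Pcgf1 over Pcgf1-/- cells, 3 of 35 further genes at 1 FPKM or more were higher and 3 lower. Among all such genes 7.23% were higher and 3.6% lower. For Pcgf1-/-+Pcgf1 over WT cells 1 of 33 was higher and 1 lower, beside 3.84% higher and 2.65% lower among all such genes.

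**Figure D5:**
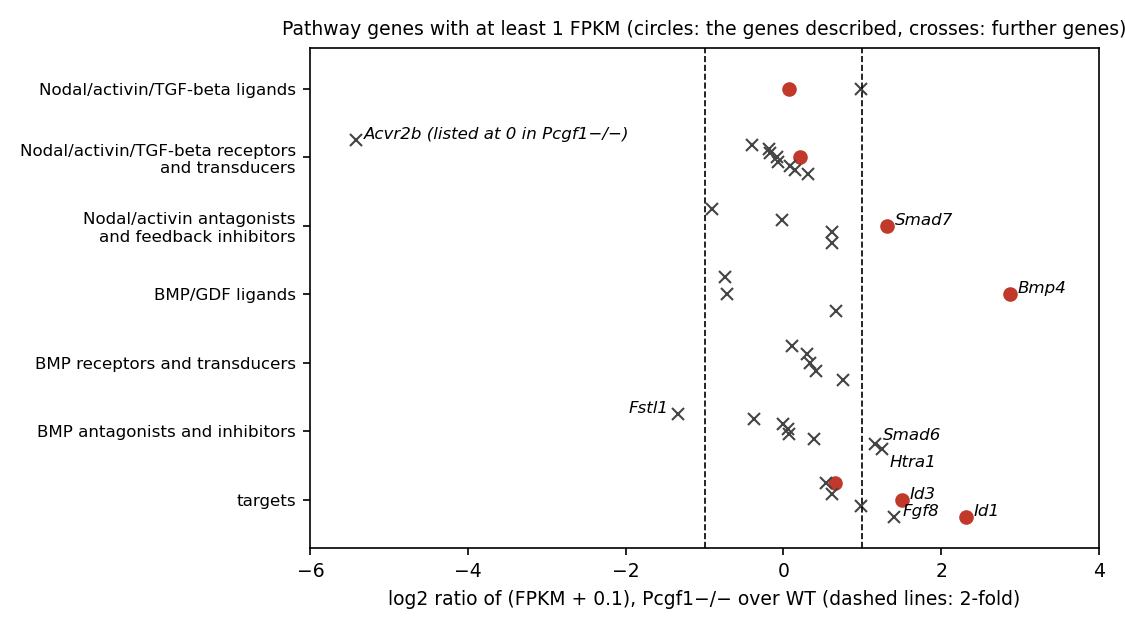
Log2 ratio of FPKM + 0.1, Pcgf1-/- over WT, of the pathway genes with at least 1 FPKM, in rows by role, with circles for the genes described and crosses for further pathway genes. Receptors and transducers lie within the dashed 2-fold lines except Acvr2b, which was listed at 0 in Pcgf1-/- cells, while Bmp4, Id1, Id3 and Smad7 lie past 2-fold.

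The targeted gene itself, Pcgf1, was at 14.0 FPKM in WT, 5.88 FPKM in Pcgf1-/- and 7.86 FPKM in Pcgf1-/-+Pcgf1 cells, so the whole-gene value was lower in the mutant but not 0. In Pcgf1-/-+Pcgf1 cells it was 1.33-fold that of the mutant and 0.567-fold that of WT, neither past 2-fold. The authors found a truncated Pcgf1 transcript in the mutant, so this value is not a measure of intact Pcgf1 RNA. They also reported FLAG-tagged Pcgf1 bound at promoters of target genes in the cells with added Pcgf1. Of the ES cell markers, Pou5f1 was at 669.5, 518 and 626 FPKM and Nanog at 68.2, 46.3 and 123 FPKM, and 0 of the 4 markers listed alone passed 2-fold in the mutant against WT. Nanog was higher in Pcgf1-/-+Pcgf1 than in Pcgf1-/- cells, at a log2 ratio of 1.41, and the part of this in the ratios of the Nodal and BMP genes was not tested. Of 14 feeder fibroblast markers with a value, 5 were lower and 0 higher in Pcgf1-/- cells than in WT. Among all genes above 0, 9.41% were lower and 4.07% higher. Only 4 of the markers reached 1 FPKM, and of these Col1a1, Thy1 and Mmp2 were lower. The other lower markers, Col1a2 and Pdgfrb, lay below 1 FPKM. The marker sum was 37.4, 17.9 and 32.2 FPKM, of which Mmp2 gave 14.9 FPKM and Thy1 14.2 FPKM in WT. Postn was listed at 0 in all samples. Fewer feeder cells, less RNA per feeder cell and lower expression in the ES cells themselves cannot be told apart in such bulk samples. The part of the feeder markers in the ratios of the Nodal and BMP genes and of Fstl1 was not tested. The sum of primitive endoderm markers was 2.22, 2.73 and 3.002 FPKM and that of primitive streak markers 1.73, 2.90 and 2.31 FPKM. The number of reads per sample is unknown, and 61.95% to 63.57% of the rows of each table were at 0. Among 2005 genes with a single annotated transcript of over 2000 bases, FPKM times kilobase lay between 0.03 and 0.075 for 72, 73 and 88 genes. The order is WT, Pcgf1-/- and Pcgf1-/-+Pcgf1 cells. The medians of these values were 0.0517, 0.0488 and 0.0498 in the same order. The range was fixed, so the medians had to fall inside it and do not show that low values gather there. With each median taken as a unit, which was not shown to be 1 read, Bmp4 stood at 105, 845 and 236 units. The other 6 of the 7 genes stood at 313 or more.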

How the data were processed

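RNA-seq was made from 3 samples, 1 each of WT ES cells, Pcgf1-/- cells and Pcgf1-/-+Pcgf1 cells, which were grouped by their genotype labels. RNA was selected with poly-T beads, libraries were made with a kit that was not stated to keep strand, and reads were paired and 150 bases long. The authors mapped reads to mm10 with TopHat2 2.0.12, and the submitters' processing notes also name Cufflinks 2.2.1 and HTSeq 0.6.0. The deposited values are FPKM per transcript event (first exons, last exons, skipped exons and others), as the authors gave them; the program that made the event lists is not given in the sources used here. Read counts and depth per sample were not available from these values, so no interval for counting error could be given.

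A gene's FPKM was the larger of its summed first-exon and summed last-exon rows. Rows with no gene name, joined names and names turned into dates were left out. Ratios were log2(FPKM + 0.1), which understates the change of low genes, and 2-fold was the limit for a call, with all genes as background. The named genes were the 10 members, the further pathway genes past 2-fold for Pcgf1-/- over WT with at least 1 FPKM, and direct receptor and transducer partners. The members and gene lists were chosen with earlier results of these data known. Gene positions came from GENCODE vM21 and sequences from RefSeq. The ratio and the call were checked on simulated data, WT values multiplied by exact factors without noise, which tests the arithmetic alone. Scripts used Python 3.11.15 with numpy 2.4.6, pandas 2.3.3 and matplotlib 3.10.9. Results were recomputed under 6 other settings (2 pseudocounts, first or last exons alone, median-of-ratios scaling over genes above 5 FPKM, a minimum of 1 FPKM) and 1 added after the data were seen (Lefty1 and Lefty2 by their first exons).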

Additional observations from a re-analysis of the deposited data

Results flagged for a closer look

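The rows for transcripts that include a skippable exon were outside the comparisons above, which use first and last exons. For Bmp4 such transcripts were at 19.97 FPKM in Pcgf1-/-, 2.64 FPKM in WT and 5.69 FPKM in Pcgf1-/-+Pcgf1 cells, and for Smad7 at 20.9, 8.33 and 10.3 FPKM. The rows were singled out because their Pcgf1-/- values stood above those of the WT control. They equal the first-exon values of the same genes, so they are the same transcripts seen through another kind of row and not a further measurement.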

How the results depend on the processing

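Of 143 log2 ratios of single genes recomputed under other settings, 139 kept their side of the 2-fold limit, 4 did not, and no called direction turned. Part of this was fixed in advance. First-exon rows alone, the minimum of 1 FPKM and the added Lefty setting gave back the same values for these genes. Each of these settings holds 21 of the ratios, which could not change side. Last-exon rows alone also gave back the same values for Nodal, Tdgf1, Bmp4, Id1 and Id2, whose ratios could not change side there either. With last-exon rows alone, the count for Pcgf1-/- against WT was 2, over the 5 genes that keep a value, and their median log2 ratio was 0.66. Id3 and Smad7 had no last-exon value above 0 to enter this count. Id3 then passed 2-fold upward in both comparisons of Pcgf1-/-+Pcgf1 cells, so no ratio is given. Its last-exon row there had another end than the row listed at 0 in the other samples. With a pseudocount of 1 FPKM, the count for Pcgf1-/-+Pcgf1 against WT was 1, since Bmp4 stood at 0.88, and Smad7 for Pcgf1-/-+Pcgf1 over Pcgf1-/- cells stood at -0.96, as it did after scaling. The count for Pcgf1-/- against WT was 4 under the other 5 settings chosen at the outset, though first-exon rows alone and the minimum of 1 FPKM could not change it. With Lefty1 and Lefty2 included by first exons, a choice made after seeing the data, the counts over 9 genes were 6 (5 higher and, as Lefty1, 1 lower), 4 (all lower) and 2 (both higher). The background moved more than the members: with a pseudocount of 0.01 FPKM, 24.3% of all genes passed 2-fold for Pcgf1-/- against WT, and with 1 FPKM 3.38% did, against 13.5% as reported. No paired analysis was possible because each group held 1 sample.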
